A study of Bos taurus with 6 samples.

Results

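The miR-148/152 family was described in fetal bovine serum (FBS), the serum of unborn calves that feeds most cell cultures. Its members are miR-148a, miR-148b and miR-152, and every row of the human and the mouse miRNA table that carries 1 of these names, on either arm, was taken, whatever its level. This gave 5 of 502 miRNA names in the human mapping and 5 of 395 in the mouse mapping: the 3p arms of all 3 miRNAs (hsa-miR-148a-3p, hsa-miR-148b-3p and hsa-miR-152-3p for human) and the 5p arms of miR-148a and miR-148b. The 5p arm of miR-152 was not analysed here. The samples were 3 pellets and 3 supernatants of untreated FBS, each from 40 mL spun at 100000 g for 24 h. Both fractions came from spun FBS, so they may be pairs, but the titles do not say whether same numbers share a serum. The main tests were unpaired. The pellet is enriched in extracellular vesicles (EVs) and also holds other heavy particles, while the supernatant keeps lighter protein complexes, of which 20 mL was concentrated on 3 kDa filters. Small RNA libraries from 60 ng RNA were sequenced, and bovine reads were mapped to the human and to the mouse genome, with levels given in RPM, the reads of a miRNA per 1000000 mapped reads. The study speaks of batches of FBS in one place and of aliquots in another, so the p-values cover the spread among these 6 samples and nothing wider, and part of that spread may be technical. Values after ± are SDs over the 3 libraries of a fraction (n = 3).

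A miRNA is cut from a hairpin whose 3p and 5p arms can both be kept, and it represses mRNAs that match its seed, the bases near its 5′ end. The 3p arms of miR-148a, miR-148b and miR-152 share this seed and differ by a few bases elsewhere, so they share many targets, among them the DNA methyltransferase gene DNMT1, and reads of one member may be given to another. miR-148a is known from liver, where it represses the LDL receptor, and as the leading miRNA of milk. In human, miR-148b and miR-152 lie in introns of the paralogous genes COPZ1 and COPZ2. The cattle assembly ARS-UCD2.0 has the genes MIR148A, MIR148B and MIR152, and also MIR148D, which overlaps MIR148A, and MIR148C, which overlaps MIR152, and neither of the last pair has a name of its own in the tables. In serum, fewer cells of a type and less RNA per cell cannot be told apart.

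The depth of the libraries set how well the rarer members were measured. The lowest value that at least 6 miRNAs of a library share was taken as 1 read, which gave between 867426 (pellet 3) and 6660802 (pellet 1) reads mapped to human, and between 3081111 and 5373233 in the supernatants. The listed miRNAs held 6.33% to 12.9% of these reads in the pellets and 5.21% to 5.85% in the supernatants. At that depth 1 read of a miRNA equals 0.150 RPM in pellet 1, and 1.15 RPM in pellet 3.

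miR-148a-3p made up most of the family and was among the 5 most abundant miRNAs of every library. In the human mapping it stood at 949, 1723 and 462 RPM in pellets 1, 2 and 3, and at 328, 240 and 259 RPM in supernatants 1, 2 and 3. All pellets were thus above all supernatants, pellet 2 was far above the other pellets, and the supernatants were close to each other. The pellet mean was 1045 ± 636 RPM (SD, n = 3), or 706 RPM without pellet 2, and the supernatant mean was 276 ± 46.2 RPM (SD, n = 3). These levels rest on an estimated 401 reads in pellet 3 and 6324 reads in pellet 1. Its place by level was 4 in pellet 1 and in all supernatants, 3 in pellet 2 and 5 in pellet 3, behind miR-122-5p of hepatocytes and miR-1246 in each. Of the RPM of the family, miR-148a-3p held 92.0% (pellet 1) to 97.7% (supernatant 1).

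hsa-miR-152-3p was far rarer and had the same order of pellets, while supernatant 1 was its lowest supernatant and the highest of miR-148a-3p. It stood at 27.2, 44.3 and 15.0 RPM in pellets 1, 2 and 3, and at 6.31, 7.34 and 7.89 RPM in supernatants 1, 2 and 3. Again pellet 2 was highest, pellet 3 lowest of the pellets, and no supernatant reached a pellet. The pellet mean was 28.8 ± 14.7 RPM and the supernatant mean 7.18 ± 0.802 RPM. In pellet 3 the level rests on an estimated 13 reads.

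hsa-miR-148b-3p had the widest range of the 3p arms. It stood at 51.2, 26.8 and 4.61 RPM in pellets 1, 2 and 3, and at 1.08, 2.92 and 1.95 RPM in supernatants 1, 2 and 3. The fractions did not overlap, and here pellet 1 was highest. The highest pellet was 11.1 times the lowest for this miRNA, against 3.73 times for miR-148a-3p and 2.96 times for miR-152-3p. The pellet mean was 27.5 ± 23.3 RPM, or 15.7 RPM without pellet 1, and the supernatant mean 1.98 ± 0.922 RPM. Pellet 3 held an estimated 4 reads of it, and the supernatants about 5.81, 11.2 and 6 reads, so its supernatant level is poorly measured. miR-152-3p and miR-148b-3p had nearly the same pellet mean and differed in the supernatants, where the lowest value of miR-152-3p (6.31 RPM) was above the highest of miR-148b-3p (2.92 RPM).

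**Figure D1:**
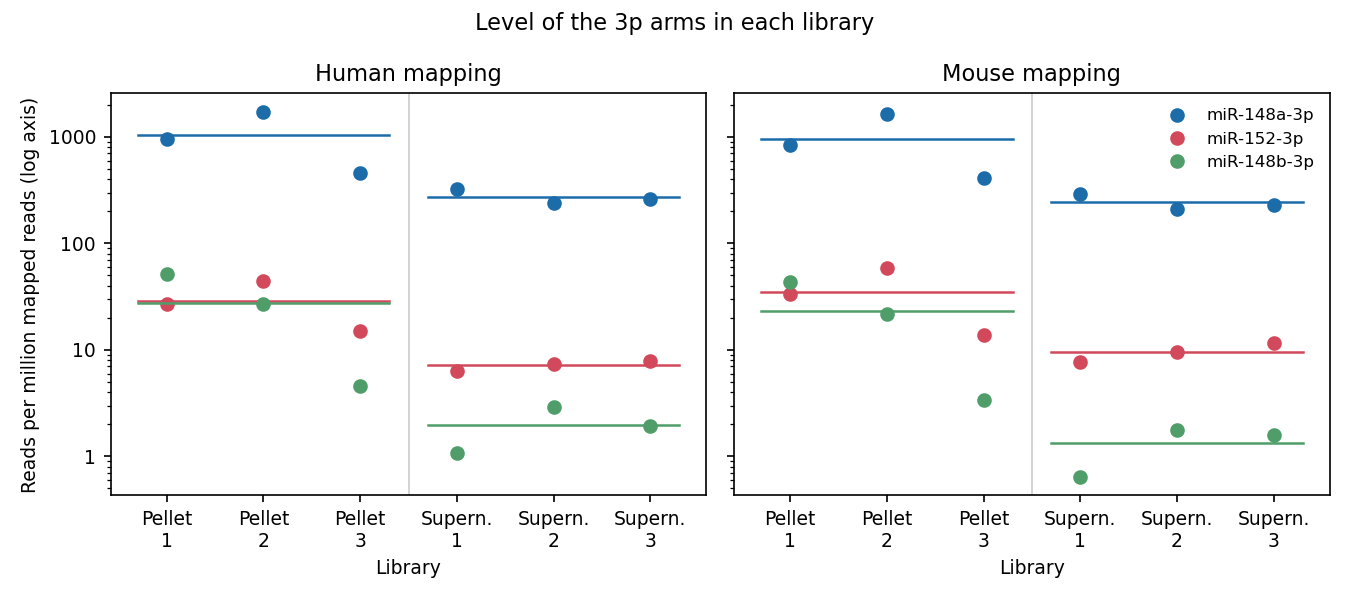
Level of each 3p arm in RPM (log axis) in the 6 libraries, for the human and the mouse mapping; points are libraries and lines are the means of the 3 libraries of a fraction. In RPM every pellet lies above every supernatant for each 3p arm, a direction that turns for miR-148a-3p and miR-152-3p when scaled to the bulk of the other miRNAs, and pellet 2 is highest for this pair and pellet 1 for miR-148b-3p.

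The 5p arms were at or near 0. miR-148a-5p was found in supernatant 1 alone, at 0.372 RPM or 2 reads in the human mapping, and was listed at 0 in the other 5 libraries. A count of 0 allows up to 3 reads, which is 0.450 RPM in pellet 1 and 3.46 RPM in pellet 3, and covers counting error only. miR-148b-5p was found at 3.90 RPM (26 reads) in pellet 1 and at 1.15 RPM (1 read) in pellet 3, and was listed at 0 in pellet 2 and all supernatants. In pellet 1, where both arms of miR-148b had more than a few reads, its 3p arm was thus at 51.2 RPM and its 5p arm at 3.90 RPM. Neither 5p arm reached 1 RPM in 3 libraries, so neither was tested.

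The question of the fractions is whether the family took a larger part of the mapped reads in the pellets or in the supernatants. RPM do not give how the amount of a miRNA was divided between the fractions. The paper reports that most RNA of the FBS stayed in the supernatant after this spin. Per mapped read, all 3 tested members were higher in the pellets in the human mapping, but for miR-148a-3p and miR-152-3p this direction turned when values were scaled to the bulk of the other miRNAs. The test was limma with Benjamini-Hochberg adjustment over 153 miRNAs, on a log scale with 1 RPM added, where folds of rare miRNAs come out too small. On the log2 scale miR-148a-3p rose by 1.73, with a standard error of 0.49 (limma, adjusted p = 0.0259), or 3.33-fold. miR-152-3p rose by 1.75 (standard error 0.61; limma, adjusted p = 0.0456), or 3.35-fold. miR-148b-3p rose by 2.80 (standard error 0.90; limma, adjusted p = 0.0366), or 6.97-fold, a value that moved to 2.11 on the log2 scale without pellet 1 and to 3.72 without pellet 3. Each was higher in 3 of 3 pellets than in any supernatant, and the two-sided exact permutation p was 0.10, the smallest that 3 libraries against 3 can give. Of all 153 tested miRNAs 47.7% were called higher and none lower (0 lower at an unadjusted p under 0.05 too), and in 66.7% every pellet was above every supernatant. A rise in the pellets was thus common among the miRNAs of these libraries. The median log2 fold change was 1.75 over the 3 members and 2.05 over all tested miRNAs. miR-148a-3p and miR-152-3p lay below this median and miR-148b-3p above it, with 38.6%, 39.9% and 79.7% of the tested miRNAs changing less. The 95% intervals ran from 0.61 to 2.86 for miR-148a-3p, from 0.35 to 3.14 for miR-152-3p and from 0.73 to 4.87 for miR-148b-3p, and each holds the median of all. The calls depend on single libraries. Without supernatant 1, 2 or 3 no member passed (adjusted p from 0.0825 to 0.135 by limma), where 0, 0 and 32 of all tested miRNAs passed. Without pellet 2 no member passed either (0.0509, 0.0870 and 0.0664 for miR-148a-3p, miR-152-3p and miR-148b-3p by limma), where 54 of all 137 tested miRNAs were called higher. Without pellet 1 only miR-148a-3p passed (0.0315 by limma), where 49 of 126 were called higher. Without pellet 3 all 3 members passed, where 93 of 131 were called higher. With no filter on low values, where 11 of 502 tested miRNAs were called higher, none of the members passed (0.135, 0.112 and 0.173 by limma).

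**Figure D2:**
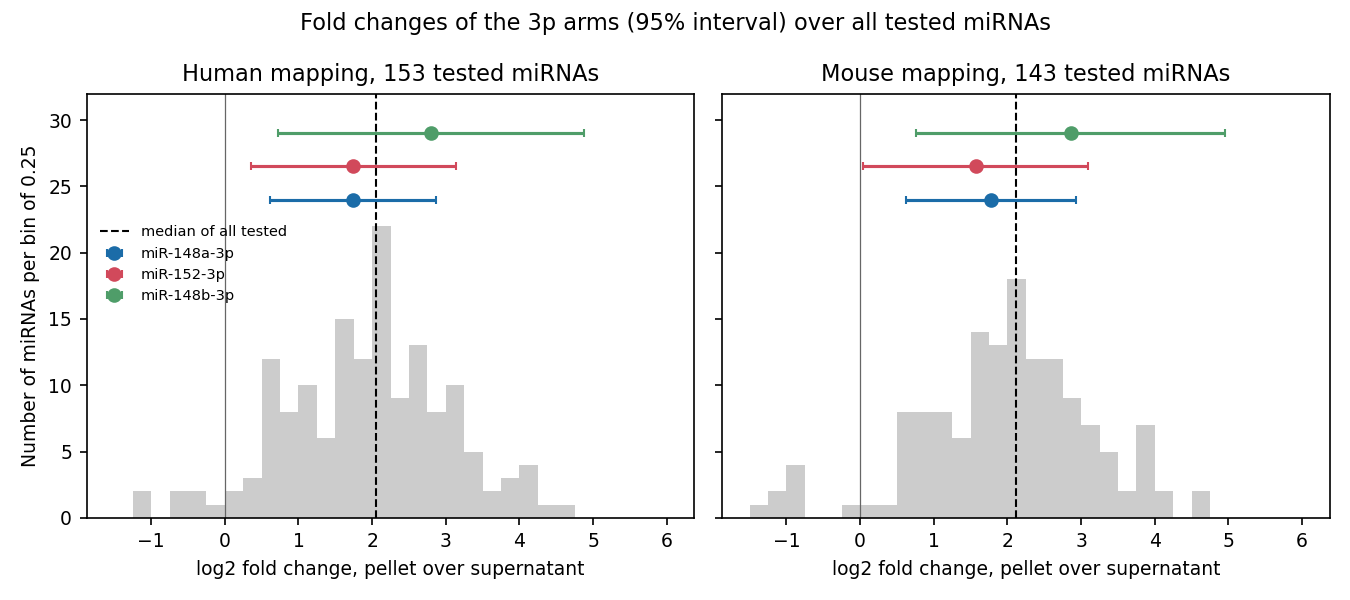
Number of tested miRNAs by log2 fold change of pellet over supernatant (grey bars, bins of 0.25), with the 3p arms as points with 95% intervals and the median of all tested miRNAs as a dashed line. Per mapped read the members lie among the bulk of the miRNAs (1.73, 1.75 and 2.80 against a median of 2.05 in the human mapping), and other scalings turn the direction of miR-148a-3p and miR-152-3p.

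The rise of miR-148a-3p and miR-152-3p was smaller when scaled to all listed miRNA reads, and turned below 0 when scaled without miR-122 and miR-1246 or by median of ratios. RPM refer to all mapped reads, and the miRNA class took more of these in the pellets (6.39% to 13.1%) than in the supernatants (5.25% to 5.91%). Scaled to the listed miRNA reads, the median over all tested miRNAs moved from 2.05 to 1.49, and the log2 fold changes were 1.10 for miR-148a-3p, 1.16 for miR-152-3p and 2.29 for miR-148b-3p (adjusted p = 0.0683, 0.160 and 0.0595 by limma). Those reads are mostly miR-122 and miR-1246. Without this pair the median was 0.28, and miR-148a-3p stood at -0.43, miR-152-3p at -0.27 and miR-148b-3p at 1.04 (adjusted p = 0.599, 0.846 and 0.531 by limma). Under median-of-ratios scaling all tested miRNAs had a median of 0.39, and the family's values were -0.31, -0.16 and 1.11 (adjusted p = 0.615, 0.888 and 0.484 by limma). Of all 153 tested miRNAs 73 were called higher and 0 lower per mapped read, 37 and 1 per miRNA read, and 1 and 5 under either of the last scalings. Relative to the median, miR-148a-3p and miR-152-3p were lower and miR-148b-3p was higher under each of the 4 scalings, and these distances from the median were not tested.

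**Figure D3:**
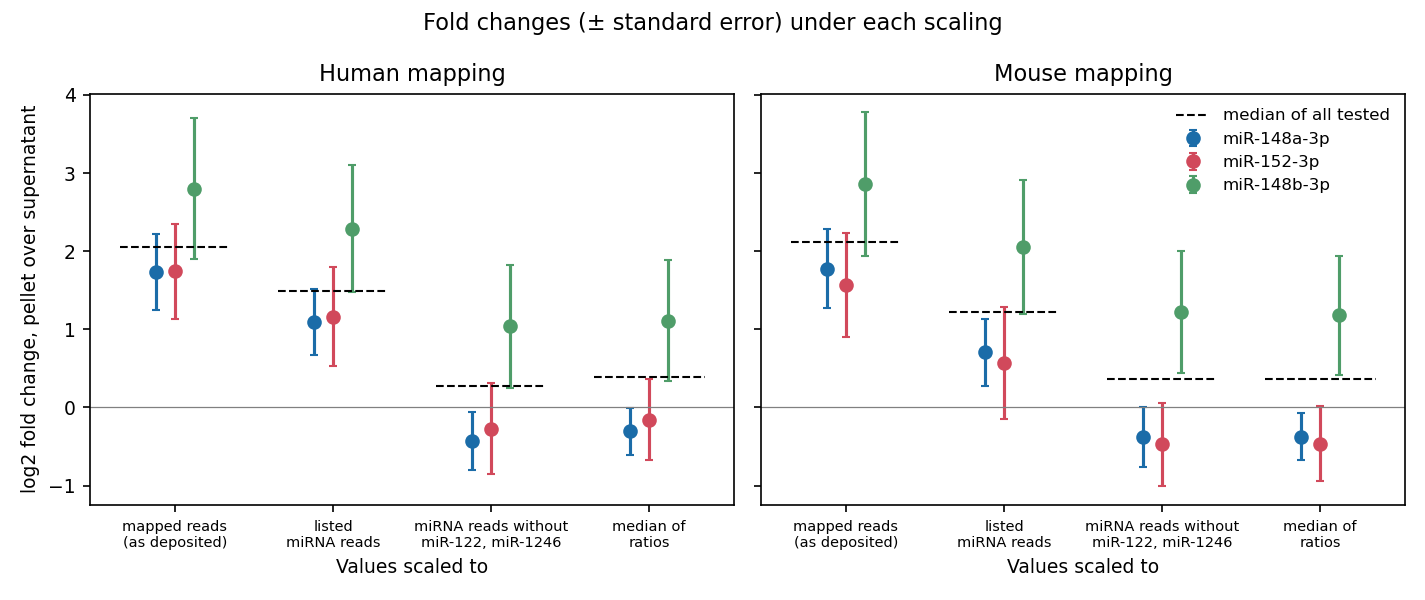
Log2 fold change of pellet over supernatant (points, with standard errors) of each 3p arm under 4 scalings, with the median of all tested miRNAs as a dashed line. miR-148a-3p and miR-152-3p are above 0 per mapped read and per miRNA read and below 0 under the other scalings, while miR-148b-3p stays above 0 under all 4.

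As a share of the miRNA pool, miR-148a-3p was close to constant in the supernatants and uneven in the pellets. It held 0.736%, 2.23% and 0.730% of the listed miRNA reads in pellets 1, 2 and 3, and 0.561%, 0.436% and 0.496% in supernatants 1, 2 and 3. The pellets were above the supernatants by a small margin in pellets 1 and 3 and by a large one in pellet 2 (mean 1.23% ± 0.863 against 0.498% ± 0.0623, two-sided exact permutation p = 0.10). In the mouse mapping the fractions overlapped, with pellet 3 at 0.556% and supernatant 3 at 0.576% (exact permutation p = 0.20). The difference of 0.734 percentage points was 0.236 without pellet 2. Among miRNA reads other than miR-122 and miR-1246 its mean share was 8.67% ± 4.73 for pellets and 10.7% ± 1.72 for supernatants, and here the fractions overlapped (exact permutation p = 0.50). In those reads miR-148a-3p held 5.13% in pellet 1, 14.0% in pellet 2 and 6.84% in pellet 3. Per read of miR-1246 it ran from 0.0538 to 0.130 in the pellets and from 0.0125 to 0.0217 in the supernatants, and per read of let-7b-5p from 1.42 to 4.22 and from 1.12 to 1.44. Against let-7a-5p the supernatants were at 4.55 to 9.41 and the pellets at 1.49 to 6.68.

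The ratio of miR-148a-3p to miR-152-3p stayed between 30.9 and 51.9 in all 6 libraries of the human mapping. In pellet 3 it rests on an estimated 13 reads of miR-152-3p. These miRNAs differ by a few bases, and the part of reads of one given to the other was not tested. miR-148a-3p was 34.9, 38.9 and 30.9 times miR-152-3p in pellets 1, 2 and 3, and 51.9, 32.7 and 32.8 times in supernatants 1, 2 and 3. The highest ratio, in supernatant 1, was 1.68 times the lowest, although miR-148a-3p itself ranged from 240 to 1723 RPM. On the log2 scale, with 1 RPM added to each level, the ratio differed by -0.010 between pellets and supernatants (two-sided exact permutation p = 0.90). With 0.1 RPM added it differed by -0.12. Across the 6 libraries the SD of the log2 ratio to miR-148a-3p was 0.26 for miR-152-3p, the lowest of 152 tested miRNAs, whose median was 0.96. In the mouse mapping it was 0.32, place 3 of 142, with miR-25-5p lowest at 0.20. Since miR-25-5p was at 0.300, 0.347 and 0 RPM in supernatants 1, 2 and 3, its SD depends on the 1 RPM added. This order is a description, since all miRNAs share the same 6 libraries.

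The ratios of both to miR-148b-3p varied more, and the differences between fractions did not pass the test. miR-148a-3p was 18.5, 64.2 and 100.3 times miR-148b-3p in pellets 1, 2 and 3, and 303, 82.1 and 133 times in supernatants 1, 2 and 3. The fractions overlapped, with pellet 1 lowest and supernatant 1 highest. With 1 RPM added to each level, the log2 difference of pellets and supernatants was -1.07 (two-sided exact permutation p = 0.30). miR-152-3p was 0.531, 1.65 and 3.25 times miR-148b-3p in the pellets and 5.84, 2.51 and 4.05 times in the supernatants. Its log2 difference, again with 1 RPM added, was -1.06 (exact permutation p = 0.20). With 0.1 RPM added, the differences to miR-148b-3p were -1.53 for miR-148a-3p and -1.40 for miR-152-3p. Without pellet 1 the differences with 1 RPM added were -0.41 and -0.39, and the first was -0.70 without supernatant 1. In pellet 1, and there alone, miR-148b-3p was the more abundant of this pair. Of the 3 ratios tested, adjusted p-values were 0.90, 0.45 and 0.45. The SD of the log2 ratio to miR-148a-3p was 1.03 for miR-148b-3p, place 86 of 152.

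**Figure D4:**
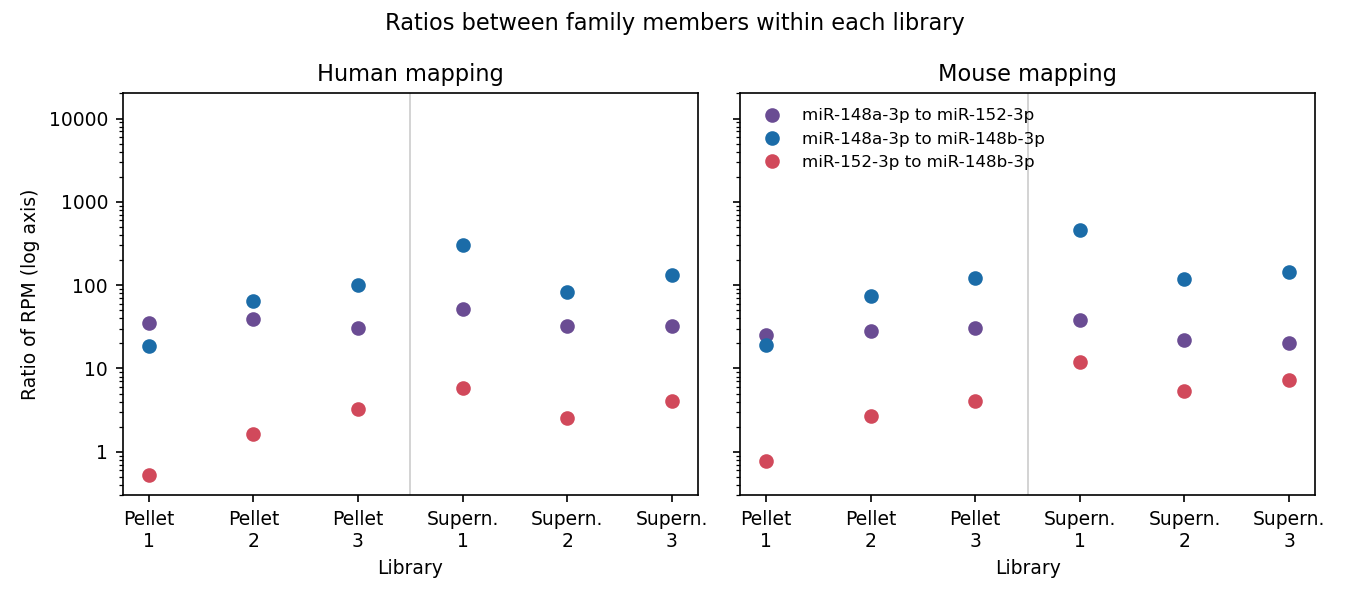
Ratio of the RPM of 1 member to another within each library (log axis), for the human and the mouse mapping; each point is a library. The ratio of miR-148a-3p to miR-152-3p stays between 30.9 and 51.9 in the human mapping, while both ratios to miR-148b-3p are lowest in pellet 1 and highest in supernatant 1.

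The order of the pellets also differed between the members. Pellet 2 was above pellet 1 and pellet 1 above pellet 3 for miR-148a-3p and miR-152-3p, as for 41 of 153 tested miRNAs (26.8%). miR-148b-3p had the order of pellet 1, pellet 2 and pellet 3, as 53 of 153 (34.6%) did. Over the 6 libraries, the levels most like miR-148a-3p by Pearson correlation of log2(RPM + 1) were the joint name miR-199a-3p/miR-199b-3p (r = 0.988), miR-423-5p (0.984), miR-125b-5p (0.977), miR-25-3p (0.975) and miR-152-3p (0.973), with miR-148b-3p at place 49 (0.881). Most like miR-152-3p were miR-25-3p (0.984), miR-191-5p (0.982) and let-7i-5p (0.977). These values rest on 6 libraries whose fractions differ for most miRNAs, which raises all such correlations. miR-423-5p, the second of the list, stood at 639, 901 and 504 RPM in pellets 1, 2 and 3 and at 422 to 484 RPM in the supernatants, so its pellets had the order of those of miR-148a-3p over a smaller range.

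miRNAs called higher in the pellets per mapped read were also counted in lists of liver, red blood cell, platelet and leukocyte, and milk miRNAs. The shares called depend on the threshold, since several members lay just past it in the human mapping. Adjusted p by limma was 0.0510 for miR-122-5p, 0.0504 for miR-194-5p, 0.0510 for miR-451a and 0.0502 for miR-16-5p. It was 0.0532 for miR-142-5p and 0.0545 for let-7b-5p, and farther from the threshold for miR-483-3p (0.182) and miR-126-3p (0.134). The lists were not counted under the other scalings, where fewer of all miRNAs were called higher. A list of miRNAs abundant in milk had 12 names, of which 10 were listed in the human mapping and 9 were tested. Its members miR-200c-3p and miR-141-3p were not listed, and its member miR-200a-3p was listed at 0 outside pellet 1 and was not tested. Of the 9 tested, 8 were higher in the pellets and 0 lower by limma. Their median log2 fold change was 2.70 against 2.05 for all 153 tested miRNAs, of which 73 (47.7%) were higher. The summed level of the milk list was 1045 to 3212 RPM in the pellets against 329 to 421 RPM for supernatants. Its member miR-21-5p, a miRNA of many tissues, had a pellet mean of 209 ± 116 RPM and a supernatant mean of 23.1 ± 10.7 RPM. Of 5 tested red blood cell miRNAs 3 were higher and 0 lower (median 2.68), a share near that of all miRNAs, and their summed level was 424 to 1320 RPM in the pellets against 57.9 to 114 RPM for supernatants. Within that list miR-486-5p was highest in pellet 2 (138, 440 and 176 RPM in pellets 1, 2 and 3), as miR-148a-3p was. So were miR-451a (4.80, 37.0 and 10.4 RPM), miR-25-3p (88.9, 220 and 23.6 RPM) and the untested miR-144-3p (0.225, 14.6 and 1.15 RPM). The remaining listed members, miR-92a-3p (1081, 346 and 208 RPM) and miR-16-5p (7.16, 2.55 and 4.61 RPM), were highest in pellet 1. Of 4 tested liver miRNAs 1 was higher and 0 lower (median 1.95), namely miR-192-5p, with a pellet mean of 57.5 ± 8.86 RPM and a supernatant mean of 11.9 ± 3.64 RPM. The summed liver level, nearly all miR-122-5p, was 49664 to 92916 RPM in the pellets against 30993 to 40809 RPM for supernatants. Of 2 tested platelet and leukocyte miRNAs 0 passed, and their list summed to 40.6 to 246 RPM in the pellets against 14.4 to 23.0 RPM for supernatants. miR-142-5p of leukocytes stood at 31.3, 241 and 39.2 RPM in pellets 1, 2 and 3 and at 12.7 to 18.4 RPM in the supernatants, while miR-126-3p was lowest in pellet 2 (9.31, 4.49 and 9.22 RPM in the pellets), and miR-223-3p was listed at 0 outside pellet 2. In the mouse mapping 3 of 3 tested liver miRNAs, miR-122-5p among them, 4 of 5 of red blood cells and 7 of 8 of milk were higher and 0 lower by limma, where 55.9% of all tested miRNAs were higher, and none of the platelet and leukocyte list was tested. The part of these cells in the levels of the family was not tested, and the milk list names no source in serum of unborn calves.

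The same reads mapped to the mouse genome gave nearly the same levels of miR-148a-3p, and they are no independent support. mmu-miR-148a-3p stood at 842, 1641 and 415 RPM in pellets 1, 2 and 3, and at 291, 211 and 232 RPM in supernatants 1, 2 and 3. It was the second most abundant miRNA there by the mean of the fraction means, with a pellet mean of 966 ± 622 RPM (628 RPM without pellet 2) and a supernatant mean of 245 ± 41.5 RPM. Its log2 fold change was 1.77 (standard error 0.50; limma, adjusted p = 0.0248). mmu-miR-148b-3p stood at 43.6, 21.8 and 3.40 RPM in pellets 1, 2 and 3 and at 0.639, 1.77 and 1.60 RPM in supernatants 1, 2 and 3, with a log2 fold change of 2.86 (standard error 0.92; limma, adjusted p = 0.0365) and a pellet mean of 23.0 RPM, or 12.6 RPM without pellet 1. mmu-miR-152-3p stood at 33.5, 58.3 and 13.7 RPM in pellets 1, 2 and 3 and at 7.66, 9.60 and 11.5 RPM in supernatants 1, 2 and 3. Its fractions did not overlap, yet it did not pass (log2 fold change 1.57, standard error 0.67; limma, adjusted p = 0.0675). Thus 2 of 3 tested members were called higher and 0 lower, where 55.9% of 143 tested miRNAs were called higher, and in 72% every pellet was above every supernatant. The median was 1.77 over the members and 2.12 over all. Scaled to the bulk of the other miRNAs, miR-148a-3p and miR-152-3p again fell below 0 (-0.37 and -0.46 with median-of-ratios scaling), and neither passed (adjusted p = 0.534 and 0.605 by limma). Without supernatant 1, 2 or 3 no member passed here as well, and the value of miR-148b-3p moved to 2.14 without pellet 1 and to 3.81 without pellet 3.

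Within the libraries of the mouse mapping, miR-148a-3p was 20.1 to 38.0 times miR-152-3p. With 1 RPM added, the log2 difference of pellets and supernatants was 0.20 (exact permutation p = 0.40). miR-152-3p was 0.767, 2.67 and 4.03 times miR-148b-3p in pellets 1, 2 and 3 and at least 5.43 times in each supernatant, so here all pellets lay below all supernatants. With 1 RPM added, the log2 difference was -1.29, or -0.64 without pellet 1 (two-sided exact permutation p = 0.10, and 0.30 when adjusted over 3 ratios). With 0.1 RPM added it was -1.84. This ratio rests on about 3.25 mouse reads of miR-148b-3p in pellet 3 and 3.82, 7.64 and 5.5 in supernatants 1, 2 and 3. In the human mapping the fractions overlapped, with pellet 3 at 3.25 times and supernatant 2 at 2.51 times.

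The 2 genomes took up miR-148a-3p reads alike and miR-152-3p reads unequally. In estimated reads, the mouse mapping held between 0.977 and 0.998 times the miR-148a-3p reads of the human mapping, so its lower RPM come with the larger total of mapped reads. For miR-152-3p the mouse mapping held 1.36, 1.37 and 1.01 times the human reads in pellets 1, 2 and 3, and 1.35, 1.48 and 1.62 times in supernatants 1, 2 and 3. In 5 of 6 libraries more reads were thus given to miR-152-3p in mouse, and in pellet 3, the shallowest library, the numbers were alike (about 13 reads each). For miR-148b-3p the ratio was below 1 in all 6 libraries, from 0.658 to 0.939, or a few reads at most in the supernatants. Over 110 miRNA names tested in both mappings this ratio had quartiles of 0.991 and 1.004, and 6 names lay above miR-152-3p at its median of 1.36. Whether the change from pellet to supernatant differed between the mappings was tested for each 3p arm, and none passed (human minus mouse -0.039, 0.18 and -0.055 on the log2 scale for miR-148a-3p, miR-152-3p and miR-148b-3p, exact permutation p = 0.30, 0.50 and 0.70, each 0.70 when adjusted over the 3).

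**Figure D5:**
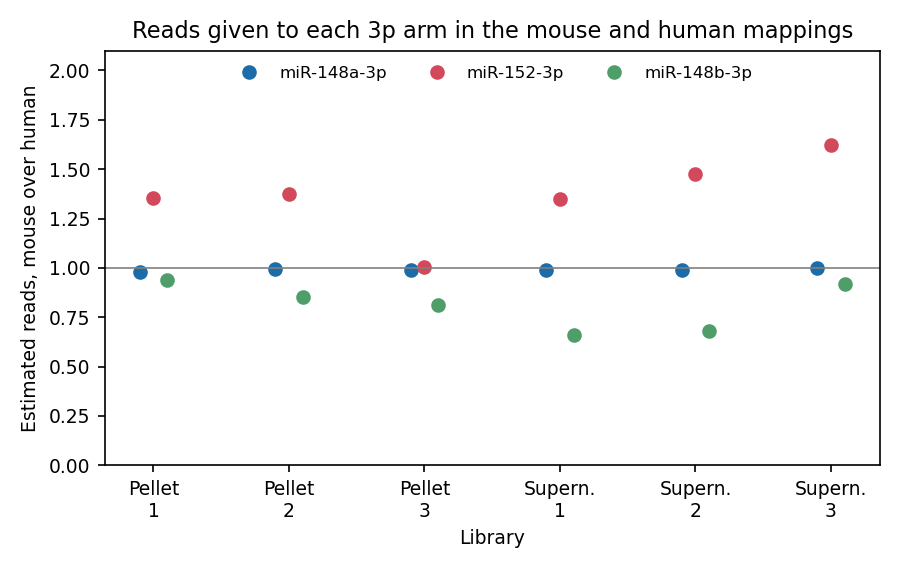
Estimated reads of each 3p arm in the mouse mapping divided by those in the human mapping, for the 6 libraries; the line marks equal numbers. miR-148a-3p lies at 0.977 to 0.998 in all libraries, miR-152-3p at 1.35 or above in all but pellet 3, and miR-148b-3p below 1 throughout.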

How the data were processed

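Small RNA of 3 FBS pellets and 3 supernatants was sequenced with inserts of 15 to 65 nt and reads of 50 nt. The authors deposited RPM, reads per 1000000 mapped reads of each library, per miRNA and per RNA class. Human values come from exceRpt V2.2.8 with hg19, and mm10 is named for mouse, whose pipeline the sources used here do not give, nor how reads shared by near-identical miRNAs were divided. Groups and replicate numbers were taken from the titles.

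A miRNA was tested where 3 or more of 6 libraries held 1 RPM or more, using limma 3.58.1 (R 4.3.3) on log2(RPM + 1), unpaired, two-sided, with a variance trend, at an adjusted p of 0.05. The step was tested on simulated data. Ratios, shares and differences between mappings were tested by exact permutation over 20 relabellings (Python 3.11.15, scipy 1.17.1). Log2 ratios, their SDs and log2 differences between mappings were taken with 1 RPM added to each level, and shares with none added. Values within 0.02 of a whole read were 35.6% to 59.6% of a human library, so no count model was used. The family members and the 4 lists (liver, red blood cell, platelet and leukocyte, milk) were chosen with earlier results of these data known. Other miRNAs named are the most abundant ones, those most like miR-148a-3p or miR-152-3p, list examples, and further list members, also named after their values were seen. Of the list examples, miR-21-5p, miR-192-5p, miR-200a-3p, miR-486-5p, miR-92a-3p, miR-142-5p, miR-126-3p and miR-223-3p were picked after their values were seen. Alternatives were other pseudocounts, filters and scalings, no variance trend, a block for replicate numbers, and fits without 1 library at a time. Cattle gene names were read from NCBI's annotation of ARS-UCD2.0. No mature sequences were used here.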

Additional observations from a re-analysis of the deposited data

How the results depend on the processing

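Against 3 human and 2 mouse members called, a pseudocount of 10 RPM gave 1 and 1, no filter on low values 0 and 0, each of the 3 other scalings 0 and 0, and a filter of at least 10 RPM in 3 libraries, which leaves out miR-148b-3p, gave 2 and 1. Of all tested miRNAs, 73 and 80 were called higher per mapped read, 38 and 34 with a pseudocount of 10 RPM, 11 and 10 with no filter, 37 and 9 per miRNA read, and 1 and 1 under either of the other scalings, where 5 and 7 were lower. With the filter of at least 10 RPM in 3 libraries, 61 of 75 and 55 of 68 were called higher, so most miRNAs passed there. Without each library in turn the members called ranged from 0 to 3 in both mappings. In mouse 47, 53 and 87 of all miRNAs were called higher without pellets 1, 2 and 3, and 0, 0 and 30 without supernatants 1, 2 and 3. Log2 fold changes turned below 0 when scaled without miR-122 and miR-1246 (miR-148a-3p -0.43 human, -0.38 mouse; miR-152-3p -0.27 and -0.47) and with median-of-ratios scaling (-0.31, -0.37; -0.16, -0.46). The share of miR-148a-3p turned without miR-122 and miR-1246, to differences of -2.04 and -1.75 percentage points, and ran from 0.236 to 0.984 and from 0.0457 to 0.763 without single libraries in human and mouse. The log2 difference of miR-148a-3p to miR-152-3p in human turned to 0.60 with a pseudocount of 10 RPM and ran from -0.12 to 0.20 without single libraries, and that of miR-148a-3p to miR-148b-3p turned to 0.28 and 0.41 in human and mouse with a pseudocount of 10 RPM. The cause was not tested. Same-numbered pellets and supernatants deviated together for numbers 2 and 3 but not for number 1 (correlations -0.19, 0.27 and 0.26 in human, -0.21, 0.22 and 0.30 in mouse). With 3 libraries per fraction these correlations cannot tell whether same numbers are pairs, and the titles give fraction and number only. The main test was unpaired, as the study's tests of 2 groups were. With the replicate block 2 members passed in each mapping, human miR-152-3p not among them (adjusted p = 0.117), with 78 and 73 of all miRNAs called, and not every library correlated best with its own number. Members of a few RPM are limited by depth in pellet 3 and the supernatants.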
